A study of Mus musculus with 8 samples.

Results

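The 9 genes described here are the matrix metalloproteinases Mmp8, Mmp9, Mmp12, Mmp14 and Mmp19, the membrane-bound proteases Adam8 and Adam17, and the tissue inhibitors of metalloproteinases Timp1 and Timp2. They form a listed set and are 9 of the 30406 genes shared by all libraries of a single-cell RNA-sequencing experiment on leukocytes from the brain and its coverings in a mouse stroke model. The cells came from adult male C57BL/6 mice, with no transgene named, that had received an intravenous anti-CD45 antibody shortly before perfusion. Cells inside tissue, which this antibody had not reached (CD45iv-CD45+), were sorted from brain parenchyma, pia mater and dura mater. There were 3 control libraries, 1 each from brain, pia and dura, whose mice are called naive in one place of the study and sham-operated in another. There were 5 libraries after transient middle cerebral artery occlusion (MCAO), a temporary closure of a large brain artery: brain at 24 h (replicates 1 and 2), brain at 72 h, pia at 24 h and dura at 24 h. For the control pia library the title says brain but tissue, source and description say pia, and it was treated as pia. Experiments were repeated and animals pooled. The study states a number per compartment after pooling but not how many animals went into a library, so a test between libraries measures the spread between these libraries only.

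Total depth was 6591898 to 20754181 unique molecular identifiers (UMIs, tags that count each captured transcript once) per library, with a median of 1083 to 2505 UMIs per annotated cell. Of 36854 barcodes, 32457 carried one of 21 cluster names given by the authors. The 2 libraries brain 24 h replicate 2 and brain 72 h stood apart, because they list 31053 genes and the other 6 list 32285. These 2 libraries shared 13 cell barcodes with each other and 0 to 2 with any of the others, whereas the other 6 shared 12 to 43 per pair. Results were therefore also computed over the 6 libraries with the longer gene list. The study's supplement lists kit version 3 for brain 72 h and dura 24 h, which is another division than that of the gene lists.

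Matrix metalloproteinases are zinc enzymes that are made as inactive precursors and cut collagens, elastin, basement membrane and many signalling proteins once activated. Timp proteins bind the active site of these enzymes and block it, and Timp2 in addition helps Mmp14 to activate other family members at the cell surface. Adam8 and Adam17 are anchored in the membrane and release the outer parts of other surface proteins; Adam17 is the main enzyme that frees tumour necrosis factor. In brain ischaemia these enzymes are known for their action on the basement membrane of vessels and on the blood-brain barrier, and neutrophils carry Mmp8 and Mmp9 in granules.

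The genes lie on 8 chromosomes of the GRCm38 build, with Mmp8 at chr9:7558456-7568485 (plus strand) and Mmp12 at chr9:7344381-7369499 (plus strand) on the same chromosome. Mmp9 is at chr2:164940780-164955850 (plus), Mmp14 at chr14:54431612-54445364 (plus) and Mmp19 at chr10:128790910-128800824 (plus). Adam8 is at chr7:139978932-139992562 (minus), Adam17 at chr12:21323509-21373632 (minus), Timp1 at chrX:20870166-20874735 (plus) and Timp2 at chr11:118301069-118355740 (minus). In the GENCODE M21 annotation Timp1 overlaps Syn1 on the opposite strand, Mmp12 overlaps Mmp1b on the opposite strand, and Timp2 overlaps Cep295nl on its own strand. Also on the opposite strand, Mmp19 overlaps Tmem198b and Gm47093, Adam17 overlaps Iah1 and Gm22766, and Adam8 overlaps Gm16201. Adam8 overlaps the microRNA gene Mir7062 on its own strand. Counts of Timp2 and Adam8 are uncertain to the extent that reads of these same-strand neighbours were shared with them.

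The RefSeq table of GRCm38.p6 gave promoter sequence for 7 of the 9 genes, and the 250 bases before each start were searched on both strands. The motifs were TGANTCA, the site of AP-1, a factor of stimulated cells, and GAGGAAGT, a site of PU.1, a factor of myeloid cells; they do not overlap each other. TGANTCA occurred in 6.75% and GAGGAAGT in 2.44% of all 32851 promoters of this length. No match was found for Mmp14, Adam8, Adam17, Timp1 and Timp2. The sequences with a match belong to Mmp8, which was concentrated in 1 cluster, and Mmp12, whose level varied widely between libraries, and are shown for that reason. They are chr9:7558179-7558428 for Mmp8, chr9:7344147-7344396 for the first start of Mmp12 and chr9:7347124-7347373 for its second start, all on the plus strand, with the match in capitals.
Mmp8: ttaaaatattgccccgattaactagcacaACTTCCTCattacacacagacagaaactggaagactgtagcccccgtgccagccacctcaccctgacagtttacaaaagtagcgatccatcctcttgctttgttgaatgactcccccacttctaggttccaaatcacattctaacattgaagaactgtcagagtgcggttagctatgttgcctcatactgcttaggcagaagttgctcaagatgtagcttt
Mmp12 first start: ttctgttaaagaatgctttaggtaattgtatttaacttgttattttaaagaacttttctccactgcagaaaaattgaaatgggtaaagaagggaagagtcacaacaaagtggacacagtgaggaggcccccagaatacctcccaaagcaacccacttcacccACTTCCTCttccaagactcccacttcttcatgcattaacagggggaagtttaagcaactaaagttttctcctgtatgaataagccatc
Mmp12 second start: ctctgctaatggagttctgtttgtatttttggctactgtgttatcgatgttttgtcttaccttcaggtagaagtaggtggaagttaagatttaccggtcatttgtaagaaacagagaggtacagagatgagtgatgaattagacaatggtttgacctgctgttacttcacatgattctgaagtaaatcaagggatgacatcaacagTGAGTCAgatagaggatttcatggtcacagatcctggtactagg
The Mmp8 match and that of the first Mmp12 start were to the PU.1 letters on the reverse strand, beginning 221 and 88 bases before the start. The match at the second Mmp12 start was to the AP-1 letters, 44 bases before it. A match describes the letters of the sequence and says nothing of binding in these cells.

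Levels are given as counts per 1000000 UMIs of the same cells (CPM), summed per library and cluster, and a library was used where a cluster had at least 30 of its cells. The kit counts the 3′ ends of transcripts, so a level is compared between cells for 1 gene and never between genes. Clusters had been made from the same counts, and their order is a description with no test. The 9 genes fell into 3 kinds of pattern. Mmp8 and Mmp9 were concentrated in the granulocyte cluster Granulo_2. Mmp12, Mmp14, Mmp19, Adam8 and Timp1 were spread over myeloid clusters, and Adam17 and Timp2 were present in all microglia and macrophage clusters. Levels varied between libraries in all 3 kinds.

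**Figure D1:**
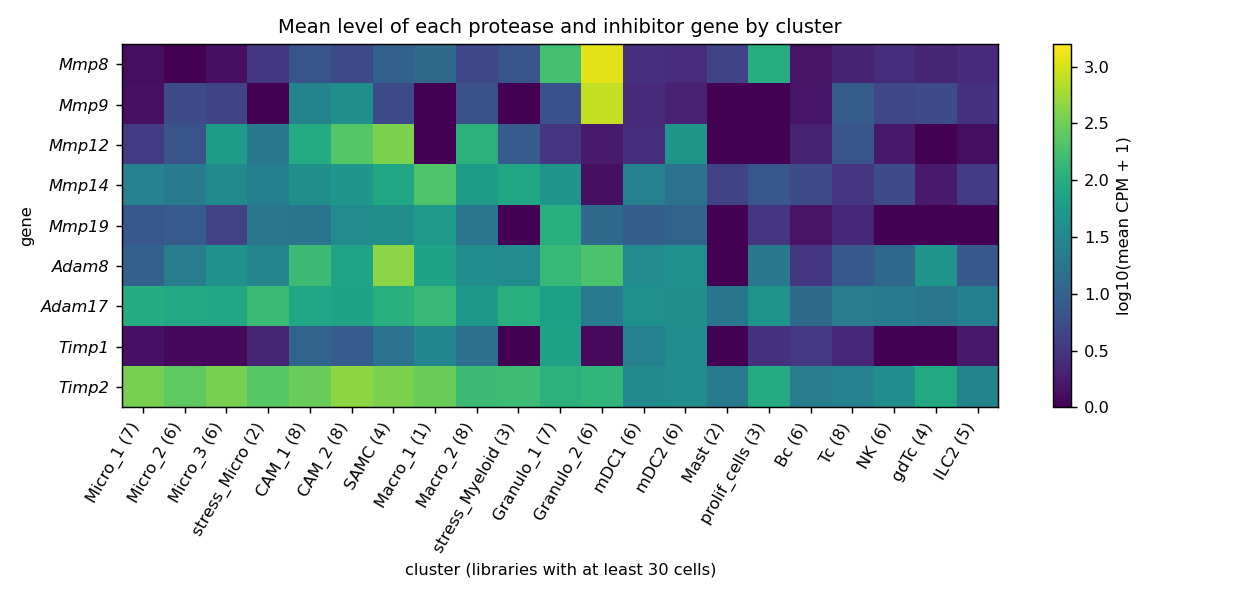
Mean level of each gene (rows) in each of the 21 clusters (columns) over libraries with at least 30 cells, where colours compare clusters within a gene and not genes with each other. Mmp8 and Mmp9 are brightest in Granulo_2, at 1176 and 815 CPM, and Timp2 is spread over CAM_2, SAMC and the microglia clusters.

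The cluster labels were compared with marker genes first. All 5 neutrophil markers and all 3 markers of immature neutrophils were highest in Granulo_2. The cluster labelled Granulo_1 went against its name, since S100a8, a neutrophil alarmin, was at 944 CPM there and 113480 in Granulo_2, and the neutrophil receptor Cxcr2 at 0.444 against 306. Of the 4 monocyte markers, Plac8 (1603 CPM) and the chemokine receptor Ccr2 (631 CPM) were highest in Granulo_1. Chil3 was higher in Granulo_2 (5219 CPM) than in Granulo_1 (3358 CPM), and Ly6c2 was highest in Macro_1 (1035 CPM), with 534 CPM in Granulo_2 and 501 CPM in Granulo_1. The label is kept below as a name for this cluster only. SAMC are the cells that the study calls stroke-associated myeloid cells, CAM those it names as macrophages of brain borders, and CAM_1, CAM_2, Macro_1 and Macro_2 together are called macrophage clusters here.

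Mmp8, the neutrophil collagenase, was at 1176 ± 619 CPM (SD, n = 6 libraries) in Granulo_2, which held 74.9% of its UMIs. In brain it was at 354 CPM (19 UMIs) in 24 h replicate 1, 1999 (1252 UMIs) in replicate 2 and 736 (361 UMIs) at 72 h. In 24 h pia it was at 872 (114 UMIs), in control dura at 1545 (533 UMIs) and in 24 h dura at 1548 (1221 UMIs). The 2 dura libraries thus held nearly equal levels with and without MCAO, and the brain libraries spanned the widest range. After thinning each cell to 500 UMIs, 6.38% to 56.1% of Granulo_2 cells had an Mmp8 UMI, the highest shares being those of control dura (53.4%) and 24 h dura (56.1%). In lymphoid clusters, which should lack the gene, the share was at most 0.36%. The Granulo_2 shares depended on depth. At 1000 UMIs they were 30.8% and 45.7% in the 24 h brain replicates, 43.0% in brain at 72 h and 44.8% in 24 h pia. Control dura was then at 56.0% and 24 h dura at 60.7%. Cells under 1000 UMIs were left out there, 34 of 47 in brain 24 h replicate 1, 238 of 373 in brain at 72 h and 100 of 129 in 24 h pia.

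The next cluster in order was Granulo_1 with 173 ± 132 CPM (n = 7), a difference from Granulo_2 larger than both SDs added, and Granulo_2 was higher in 6 of 6 libraries that held both. In Granulo_1 Mmp8 was at 255, 326 and 68.2 CPM in brain at 24 h (replicates 1 and 2) and 72 h. It was at 0 in control pia and 124 in 24 h pia, and at 105 in control dura and 335 in 24 h dura. Control levels were below those of the same tissue at 24 h, but control dura was above brain at 72 h, so the groups overlapped. Per 1000 UMIs of the 5 neutrophil markers, Mmp8 had 2.89 to 7.62 UMIs in Granulo_2 and 94.6 to 421 in the 6 Granulo_1 libraries that held it. Mmp8 and the neutrophil markers were therefore not in 1 ratio in both clusters. In SAMC, Mmp8 was at 35.2 CPM (81 UMIs) at 72 h and at 0 in the other 3 libraries, and microglia clusters of all 8 libraries held 5 UMIs in all.

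Mmp9, the gelatinase that cuts basement membrane collagen, was at 815 ± 575 CPM (n = 6) in Granulo_2, with 85.7% of its UMIs and 21.6 times the mean of the next cluster. Its order among libraries was not that of Mmp8. It was at 298 CPM (16 UMIs) and 1764 (1105 UMIs) in the 24 h brain replicates and at 1218 (597 UMIs) in brain at 72 h. In 24 h pia it was at 780.2 (102 UMIs), in control dura at 420.3 (145 UMIs) and in 24 h dura at 408 (322 UMIs). The highest 2 libraries were those with the shorter gene list, and over the 4 others the mean was 477 ± 210 CPM. The sum of the immature neutrophil markers Camp, Ltf and Ngp was 154177 and 161737 CPM in the dura libraries and 42212 to 75237 in the 4 others, and its part in these values was not tested.

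Of Granulo_2 cells thinned to 500 UMIs, those with both the Mmp8 and the Mmp9 transcript made up 2.13% and 24.3% in the 24 h brain replicates, 8.33% in brain at 72 h and 7.75% in 24 h pia. They made up 19.9% in control dura and 18.4% in 24 h dura. In control dura 49 cells held Mmp8 without Mmp9 and 10 the reverse, and in 24 h dura the numbers were 135 and 23. They stood the other way in brain at 72 h (20 and 124 cells) and in brain 24 h replicate 2 (20 and 52). These are the 2 libraries with the shorter gene list, so their difference from dura cannot be told apart from that division. In brain 24 h replicate 1 the numbers were 2 and 3, and in 24 h pia 20 and 30. These shares count cells with a captured UMI, and a cell without one may still express the gene.

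A MCAO effect on Granulo_2 could not be tested at the minimum of 30 cells, as control dura was the only control library to reach it. With a minimum of 10 cells, which adds control pia, the log2 fold change was 1.35 (SE 0.87) for Mmp8, 1.26 (SE 0.84) for Mmp9 and 1.68 (SE 0.79) for Adam8 with edgeR's quasi-likelihood test, each at an adjusted p of 1. Control pia held 10 cells of this cluster, with 3 UMIs of Mmp8 and 3 of Mmp9, and brain had no control at this minimum. In dura both genes were nearly level, so their positive values rest on these few control pia UMIs.

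**Figure D2:**
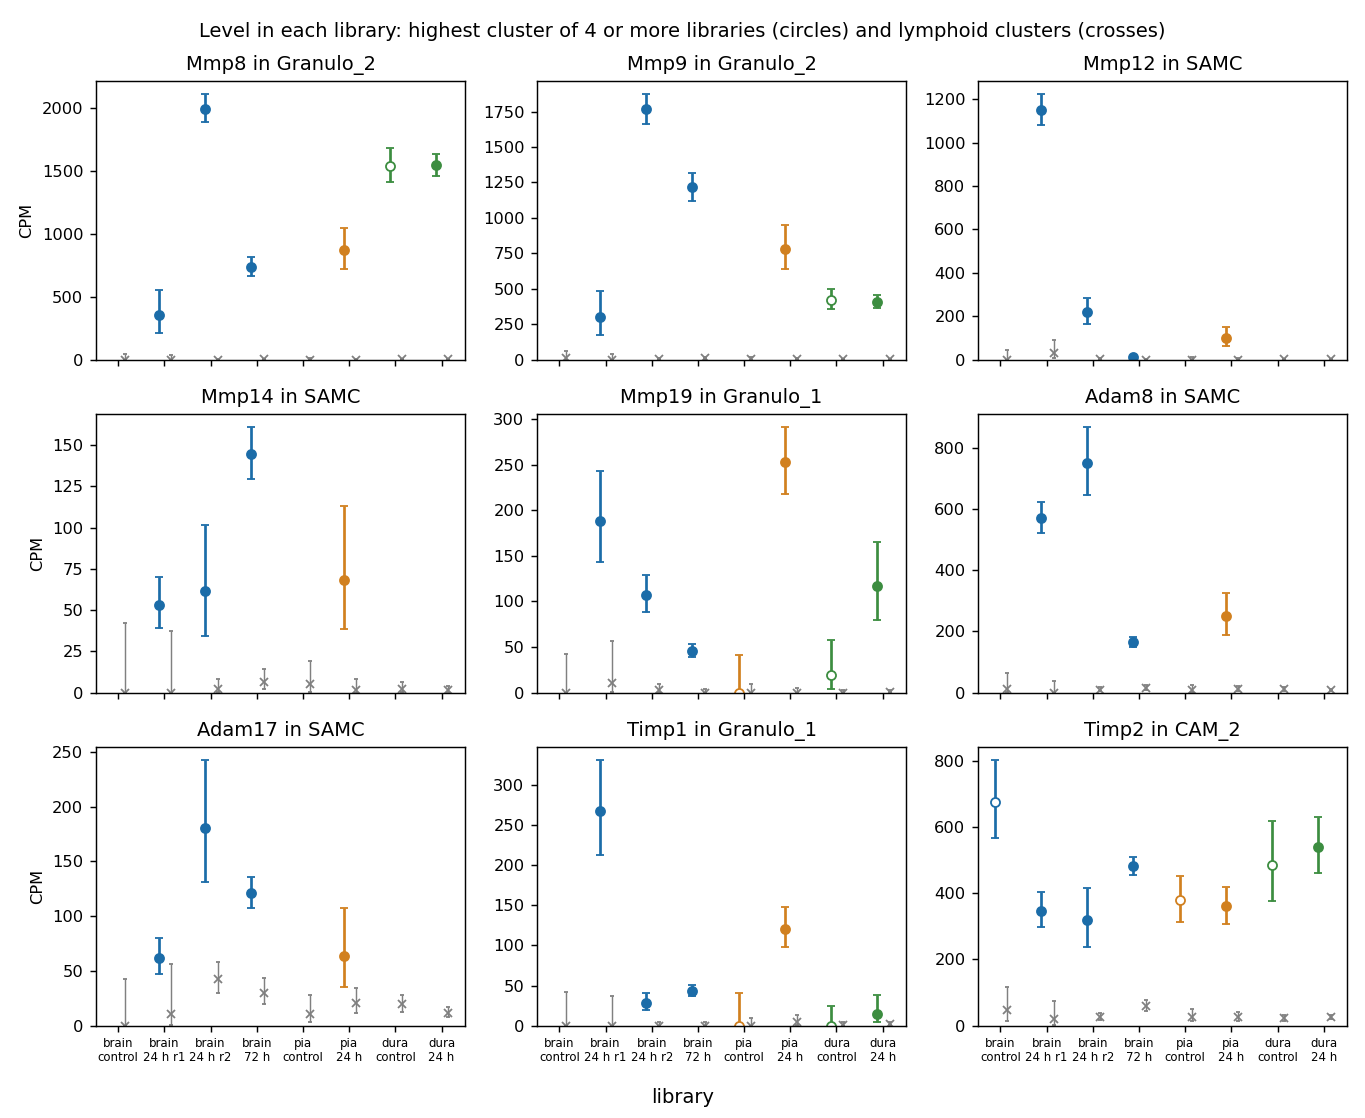
Level (CPM) of each gene by library in the cluster where it was highest among clusters measured in at least 4 libraries, with 95% Poisson counting intervals (open circles control, filled circles MCAO, blue brain, orange pia, green dura, grey crosses the summed lymphoid clusters). Libraries of the same tissue and time lie further apart than their counting intervals for several genes, as for Mmp8 in the 24 h brain replicates (354 and 1999 CPM).

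Outside Granulo_2, Mmp9 was found in the macrophage clusters, and there its level followed the tissue. In the macrophage clusters together it was at 0 CPM in control brain, 0.46 (1 UMI) and 7.8 (7 UMIs) in the 24 h brain replicates and 3.03 (15 UMIs) at 72 h. It was at 9.7 CPM (40 UMIs) in control pia and 9.2 (37 UMIs) in 24 h pia. In control dura it was at 41.3 (90 UMIs) and in 24 h dura at 40.02 (109 UMIs). The 3 tissues did not overlap by library, but the counting interval of brain 24 h replicate 2, with 7 UMIs, reached into the pia values. Levels in control and MCAO libraries of pia, and likewise of dura, lay within each other's counting intervals.

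Brain macrophage clusters held less Mmp9 than those of dura, by 4.45 on the log2 scale (log2 fold change -4.45, SE 0.82, adjusted p = 0.047, edgeR's quasi-likelihood test over 8 libraries). In this comparison 1.42% of 10122 genes were called (at least 2-fold different with an adjusted p under 0.05), 15 higher and 129 lower in brain, and Mmp9 was the only 1 of the 9 members among them. Over the 6 libraries with the longer list the value was -7.05 (SE 0.52, adjusted p = 9.2e-05), where 25.0% of genes were called. The brain side of this fit held 0 Mmp9 UMIs in control brain and 1 in brain 24 h replicate 1, so its fold is no bound. Timp1 was also called in that fit (-2.80, adjusted p = 0.010), whereas over 8 libraries it was at -0.83. The Mmp9 call was lost on leaving out any of 7 libraries, all but brain 24 h replicate 1. The adjusted p was then 0.14 without control brain, 0.071 without brain 24 h replicate 2, 0.083 without brain 72 h, 0.095 without either pia library, 0.25 without control dura and 0.61 without dura 24 h. It was 0.087 with library size scaling and 0.17 with the kit version as a covariate. Pia against dura was at -2.11 (SE 0.86, adjusted p = 1), with 0 of 10122 genes called by edgeR, 151 at an unadjusted p under 0.05 and 8 called by DESeq2. Over the 6 libraries it was at -2.13 (SE 0.25, adjusted p = 0.012), where 0.839% of genes were called.

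Several markers moved with this tissue difference. The summed border macrophage markers Pf4, Mrc1, Lyve1 and Cd163 were at 10.1 to 355.5 CPM in brain macrophage clusters and at 1985 to 2810 in pia and dura. Microglia markers were at 21293 and 9262 CPM in control brain and brain 24 h replicate 1 and at 830 to 1698 in the other libraries. In control brain and brain 24 h replicate 1 the name macrophage clusters thus went against the markers and is kept as a label only. Brain and dura are compared here by cluster name, and not between cells with the same markers. Immature neutrophil markers were at 156 and 319 in dura and 7 to 23 elsewhere. Their part in the difference was not tested. Per 1000 neutrophil marker UMIs, Mmp9 had 267 and 128 UMIs in the dura macrophage clusters against 1.96 and 2.01 in dura Granulo_2.

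Within the dura macrophages, Mmp9 was at 104.8 CPM (14 UMIs) and 146.9 (44 UMIs) in CAM_2 of control and 24 h, and at 86.2 (40 UMIs) and 53.8 (43 UMIs) in CAM_1. In Macro_2 it was at 21.7 (33 UMIs) and 13.3 (21 UMIs). In brain CAM_2 it reached 5.89 CPM, from 1 UMI.

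**Figure D3:**
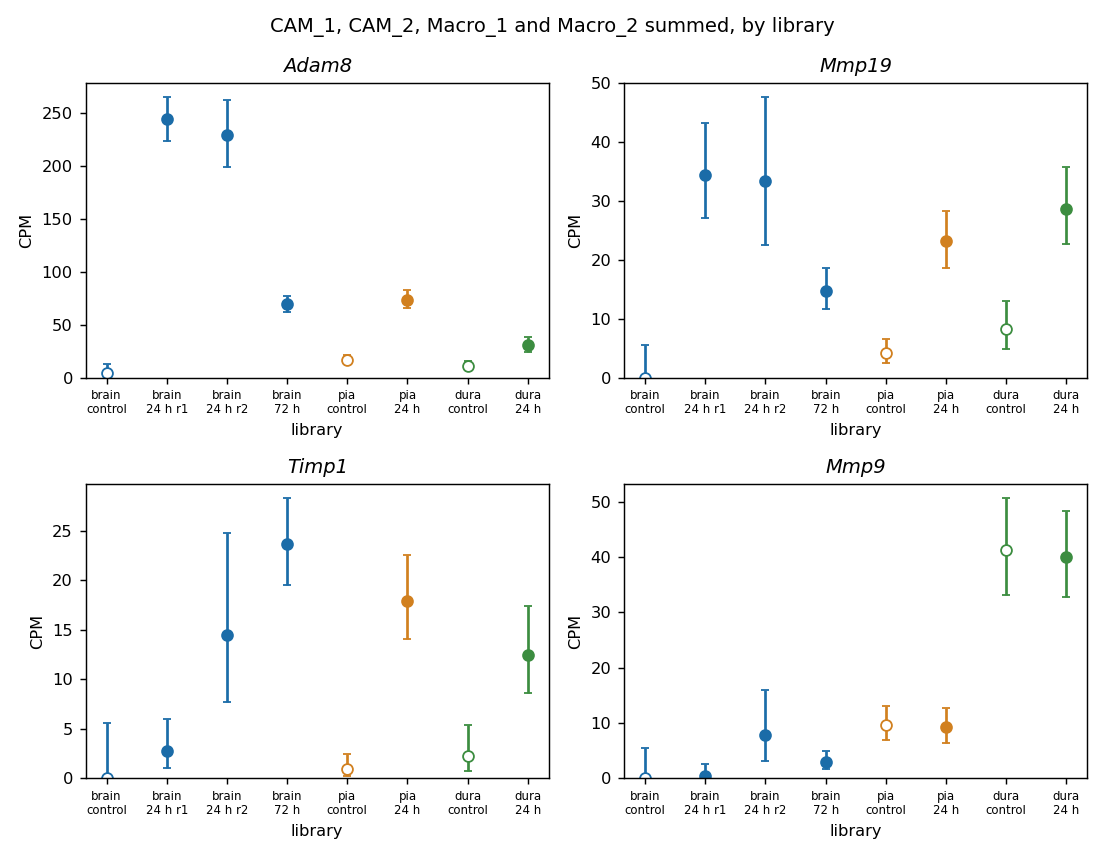
Levels (CPM) of Adam8, Mmp19, Timp1 and Mmp9 in the summed macrophage clusters by library, with 95% Poisson counting intervals (open circles control, filled circles MCAO, blue brain, orange pia, green dura). Mmp9 separates by tissue with dura at 40.02 and 41.3 CPM, while Mmp19, Adam8 and Timp1 are higher in each of the 5 MCAO libraries than in each control.

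Mmp12, the macrophage elastase, had its highest mean in SAMC, measured in 4 libraries, and varied widely between them. In SAMC it was at 1151 CPM (1064 UMIs) and 218 (53 UMIs) in the 24 h brain replicates. It was at 13.0 (30 UMIs) in brain at 72 h and at 100.5 (22 UMIs) in 24 h pia. The mean of 371 CPM thus had an SD of 527 (n = 4), and neighbours in the order of clusters (SAMC, CAM_2, Macro_2, CAM_1, Micro_3 and mDC2) did not differ beyond their spread. Over the same 4 libraries the mean of CAM_2 was higher, at 454 ± 721 CPM. The few SAMC of libraries under 30 cells held the gene in part. Control pia had 22 UMIs in 25 cells, all from 1 cell, and control brain had 14 in its 1 cell. Dura at 24 h had 10 UMIs in 9 cells, and control dura had 0 in 8 cells.

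In CAM_2 Mmp12 was at 1528 CPM (735 UMIs) and 212 (36 UMIs) in the 24 h brain replicates, against 5.09 (1 UMI) in control brain and 3.28 (8 UMIs) at 72 h. In CAM_1 the same replicates were at 523 (785 UMIs) and 208 (50 UMIs), with 0 in control brain and 2.09 (1 UMI) at 72 h. Outside the brain CAM_1 stayed at or under 1.64 CPM. CAM_2 was at 72.6 (33 UMIs) in 24 h pia, 3.34 (1 UMI) in 24 h dura and 0 in both of their controls. The high values thus lay in the libraries of brain at 24 h in both clusters.

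Macro_2 differed from the CAM clusters in that every library held Mmp12, at 242 CPM (15 UMIs) in control brain and 493 (78 UMIs) and 28.7 (13 UMIs) in the 24 h brain replicates. It was at 17.2 (32 UMIs) at 72 h, 9.16 (22 UMIs) and 14.3 (24 UMIs) in control and 24 h pia, and 44.6 (68 UMIs) and 42.9 (68 UMIs) in control and 24 h dura. The microglia cluster Micro_3 held 142 (141 UMIs) and 195 (96 UMIs) in the 24 h brain replicates, and 1.83 CPM or less in its other 4 libraries. In the dendritic cell cluster mDC2 the gene was at 18.3 to 94.1 CPM, with 71.8 (27 UMIs) in control pia.

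Mmp12 UMIs were held by few cells. In SAMC of brain 24 h replicate 1, 101 of 301 cells had a UMI, and the 16 highest cells held 61.7% of all UMIs, with up to 102 in a single cell. In CAM_2 of the same library 44 of 273 cells had one and the 14 highest held 80.5%. In Micro_3 of replicate 2, 70 of 96 UMIs came from 1 cell, and in SAMC at 72 h 25 of 30 did. Levels of this gene therefore rest on small numbers of cells, which their counting intervals do not take into account. At 500 UMIs per cell, the share of SAMC with an Mmp12 UMI was 17.6% and 8.33% in brain at 24 h, 0.21% at 72 h and 2.11% in 24 h pia.

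SAMC at 72 h against 24 h gave a log2 fold change of -5.26 for Mmp12 (SE 1.77, adjusted p = 0.93, edgeR's quasi-likelihood test over 4 libraries). In this comparison 0 of 7641 genes (0%) were called by edgeR, with 310 at an unadjusted p under 0.05. DESeq2 gave -5.27 at an adjusted p of 0.0058, where 0.393% of genes were called, and Mmp12 was the only 1 of 8 members tested among them. Without brain 24 h replicate 2, edgeR gave -5.68. In that fit brain 72 h was the only library with the shorter gene list, so time and gene list coincided. The 24 h side holds both brain replicates and 24 h pia with no term for tissue, and without pia, in brain alone, the value was -5.74 (SE 1.62, adjusted p = 0.13). Mmp8 was at 8.03 (SE 2.15, adjusted p = 0.61) over 4 libraries, a value that is no bound since all 24 h libraries were at 0. Whether Mmp8 was called changed with the setting, as on leaving out brain 24 h replicate 2 or the filter on low counts. None of the other 6 members tested in SAMC was called over 4 libraries. Mmp19 was at -1.49 (SE 1.04), Adam8 at -1.56 (SE 1.02), Mmp14 at 1.31 (SE 0.79), Adam17 at 0.41 (SE 0.86), Timp1 at 1.20 (SE 1.22) and Timp2 at 1.42 (SE 0.83). The 1 library at 72 h has the shorter gene list, and time cannot be told apart from this library.

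**Figure D4:**
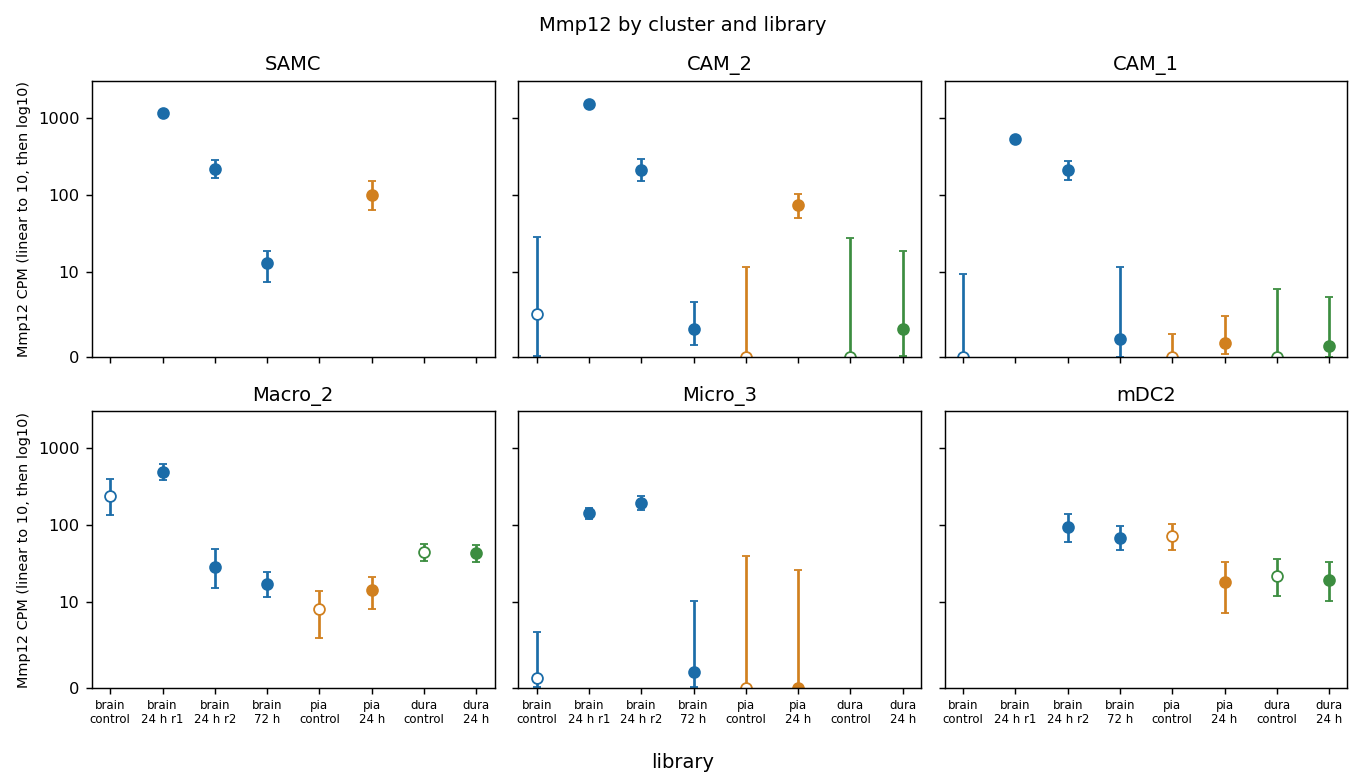
Level of Mmp12 (CPM, on an axis that is linear up to 10 and log10 above) in 6 clusters by library, with 95% Poisson counting intervals (open circles control, filled circles MCAO, blue brain, orange pia, green dura) and no point where a library had under 30 cells. Among the points shown, the high values in SAMC, CAM_1, CAM_2 and Micro_3 are those of the 2 brain libraries at 24 h, up to 1528 CPM, whereas Macro_2 held the gene in every library. No control SAMC are shown.

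Mmp14, a membrane-anchored collagenase that activates other metalloproteinases, was spread over macrophage clusters, SAMC and Granulo_1 and nearly absent from Granulo_2, where all libraries held 1 UMI. In Granulo_1 it was at 95.6, 46.7 and 72.9 CPM in brain at 24 h (replicates 1 and 2) and 72 h, 22.1 in control pia, 53.95 in 24 h pia, 0 in control dura and 15.03 in 24 h dura. Its highest level was 205 CPM (35 UMIs) in Macro_1 of brain at 72 h, the single library with at least 30 cells there. In stress_Myeloid the mean was 83.1 ± 48.3 CPM (n = 3), which with SAMC and the clusters after it in the order formed a series in which no neighbours differed beyond their spread. In SAMC it was at 81.9 ± 42.2 CPM (n = 4), with 53.0 (49 UMIs) and 61.6 (15 UMIs) in the 24 h brain replicates, 145 (333 UMIs) at 72 h and 68.5 (15 UMIs) in 24 h pia.

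Brain at 72 h was also the highest library in the macrophage clusters, where Mmp14 was at 143.9 CPM, against 12.1 in control brain and 47.8 and 54.6 in the 24 h replicates. It was at 35.3 in control pia and 54.8 in 24 h pia, and at 10.1 in control dura and 32.3 in 24 h dura. Within each tissue the MCAO libraries were above the control, but control pia was above 24 h dura, so the groups overlapped. Stroke against control gave 1.64 on the log2 scale (SE 0.63, adjusted p = 0.92, edgeR), and 1.13 (SE 0.27, adjusted p = 0.068) over the 6 libraries.

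Mmp19, a metalloproteinase of basement membrane proteins, was highest in Granulo_1 at 104 ± 91.8 CPM (n = 7), which held 47.8% of its UMIs, and its excess over the next clusters was within the spread. There it was at 188 (59 UMIs) and 107 (112 UMIs) in the 24 h brain replicates and 45.9 (165 UMIs) at 72 h. It was at 0 in control pia and 253 (192 UMIs) in 24 h pia, and at 19.8 (3 UMIs) in control dura and 117 (31 UMIs) in 24 h dura. All 5 MCAO libraries were above both controls, an order that 10.4% of all genes tested in this cluster had. In CAM_2 it was at 99.8 and 106 CPM in the 24 h brain replicates, 14.0 to 33.4 in the other MCAO libraries and 0 in all 3 controls. The limits of 3 counts in control brain (15.3 CPM) and control dura (22.5 CPM) were above the lowest of these MCAO values. In control pia the limit was 9.46 CPM.

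Adam8, a sheddase of myeloid cells, was highest in SAMC at 435 ± 274 CPM (n = 4), higher than in CAM_1 in 4 of 4 libraries. Granulo_2 followed at 194 ± 98.4 CPM (n = 6) and CAM_1 at 154 ± 233 (n = 8), neighbours that did not differ beyond their spread. The SAMC libraries are all after MCAO, whereas those of CAM_1 include the controls, so these means cover unlike libraries. In SAMC it was at 571 (528 UMIs) and 751 (183 UMIs) in the 24 h brain replicates, 165 (380 UMIs) at 72 h and 251 (55 UMIs) in 24 h pia. At 500 UMIs per cell, 22.6% and 30.8% of SAMC in brain at 24 h had an Adam8 UMI, 8.45% at 72 h and 11.6% in 24 h pia.

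In CAM_1 Adam8 was at 5.24 CPM in control brain against 266 (400 UMIs) and 691 (166 UMIs) in the 24 h replicates and 91.9 at 72 h. It was at 28.5 in control pia and 100.4 in 24 h pia, and at 8.62 in control dura and 40.1 in 24 h dura. The MCAO library was thus above its control in each tissue. Adam8 was also present in Granulo_2, at 74.4 to 345 CPM, with 128 (44 UMIs) in control dura and 212 (167 UMIs) in 24 h dura. In Granulo_1 it was at 280.5, 115 and 177 CPM in the brain libraries, 11.1 in control pia, 243 in 24 h pia, 39.5 in control dura and 94.0 in 24 h dura. Granulo_1 was thus above SAMC in brain at 72 h, close to SAMC in 24 h pia and below SAMC in the 24 h brain replicates.

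Adam17 was spread over most myeloid clusters. Its means were 149 ± 24.6 CPM in stress_Micro (n = 2), 107 ± 56.4 in SAMC (n = 4) and 95.6 ± 67.4 in Micro_1 (n = 7), and 11.7 to 23.0 in the lymphoid clusters, with 140 CPM in the single Macro_1 library. Neighbours in this order did not differ beyond their spread. Both stress_Micro libraries are those with the shorter gene list, and over these 2 libraries Micro_1 was higher, at 192 ± 11.1 CPM. In Micro_1 it was at 199.7 and 184 CPM in the 2 libraries with the shorter gene list and at 37.0 to 76.2 in the 5 others. Over the 2 SAMC libraries with the longer list the mean was 62.8 ± 1.59 CPM. In macrophage clusters stroke against control gave 0.14 on the log2 scale (SE 0.30), a difference smaller than its error whose sign turned in the longer-list libraries (-0.017) and without control brain (-0.061).

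Timp1, the inducible inhibitor, had its highest mean in Granulo_1 at 67.9 ± 97.4 CPM (n = 7), with 38.6% of its UMIs. It was at 268 (84 UMIs) and 28.6 (30 UMIs) in the 24 h brain replicates, 42.9 (154 UMIs) at 72 h, 121 (92 UMIs) in pia and 15.03 (4 UMIs) in 24 h dura. Both control libraries of this cluster, pia and dura, were at 0. Against the limit of 3 counts over both controls the mean of the MCAO libraries was at least 7.67-fold higher, or at least 4.19-fold without brain 24 h replicate 1. This bound mixes tissues, since the MCAO libraries include brain and no brain control reached 30 cells. In pia the 24 h value of 121 CPM stood against a control limit of 33.2. In dura the 24 h value of 15.03 was below the control limit of 19.8. The spread among MCAO libraries was wide, and its lowest value rests on 4 UMIs. The dendritic cell cluster mDC2 was next at 36.2 ± 27.4 CPM (n = 6), a difference within the spread. Over the 6 libraries that held both clusters, which leave out brain 24 h replicate 1, the mean of Granulo_1 was 34.6 ± 45.5 CPM and thus below that of mDC2.

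Dendritic cells of control libraries held Timp1 as well. In mDC2 it was at 31.4 CPM (20 UMIs) in control dura, 74.7 (50 UMIs) in 24 h dura, 13.3 in control pia and 65.8 (36 UMIs) in 24 h pia. In mDC1 it was at 1.57 CPM in control dura, 8.86 in 24 h dura, 0 in control pia and 29.6 in 24 h pia, and at 48.7 and 58.5 in brain 24 h replicate 2 and brain 72 h. In Macro_2 it was at 0 in control brain, 37.9 and 22.0 in the 24 h replicates and 27.9 (52 UMIs) at 72 h. The limit of 3 counts in control brain was 48.4 CPM, above these values, so the depth cannot show a difference in brain. Macro_2 was at 1.25 CPM (3 UMIs) in control pia and 9.51 (16 UMIs) in 24 h pia. In control dura it was at 0.66 (1 UMI) and in 24 h dura at 15.8 (25 UMIs). Microglia clusters held 5 UMIs and Granulo_2 1 UMI over all libraries, and control brain held 0 UMIs in any annotated cell.

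Timp2, the widely expressed inhibitor, was highest in CAM_2 at 449 ± 121 CPM (n = 8) and higher there than in CAM_1 in 8 of 8 libraries. In CAM_2 it was at 677 in control brain, 347 and 318 in the 24 h replicates and 481 at 72 h. It was at 378 and 361 in control and 24 h pia, and at 486 and 541 in control and 24 h dura. The control and MCAO libraries overlapped. Timp2 was at 368 ± 214 CPM in SAMC (n = 4) and 352 ± 144 in Micro_1 (n = 7), differences within the spread, and at 22.0 to 86.8 in lymphoid clusters. In macrophage clusters stroke against control gave -0.39 on the log2 scale (SE 0.38, adjusted p = 0.92).

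For stroke against control, 3 of the 9 genes (Mmp19, Adam8 and Timp1) had each of the 5 MCAO libraries above each of the 3 controls in the macrophage clusters, as did 4.53% of all genes tested. Macro_2 made up 35 of 440 of these cells in control brain, 570 of 1497 in brain at 72 h and 1044 of 1929 in control pia. A change in this mix of clusters and a change in RNA per cell cannot be told apart in the sums. In these cells Mmp19 was at 0, 4.11 and 8.26 CPM in control brain, pia and dura. It was at 34.4 and 33.4 in the 24 h brain replicates, 14.8 in brain at 72 h, 23.2 in pia and 28.6 in 24 h dura. Adam8 was at 4.54, 16.9 and 10.6 CPM in these controls, at 244, 230 and 69.3 in the brain libraries, at 73.7 in pia and at 30.8 in dura.

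Timp1 was at 0, 0.97 and 2.29 CPM in these controls, at 2.76, 14.5 and 23.6 in the brain libraries, at 17.9 in pia and at 12.5 in dura. The gap between its groups was narrow, as brain 24 h replicate 1 held 6 UMIs and the limit of 3 counts in control brain (4.54 CPM) was above its value. By edgeR's quasi-likelihood test over 8 libraries, the log2 fold change was 2.65 for Mmp19 (SE 0.68), 2.72 for Adam8 (SE 0.78) and 3.55 for Timp1 (SE 0.95), each at an adjusted p of 0.92. No gene of 10122 was called by edgeR (0%), 472 had an unadjusted p under 0.05, and DESeq2 called 13 (0.128%).

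Other markers moved with MCAO in these cells. The summed SAMC markers Spp1, Fabp5, Gpnmb and Lpl were at 65.0 to 104 CPM in the control macrophage clusters and at 168 to 4711 after MCAO, with the lowest MCAO value in dura. The monocyte markers Ly6c2, Ccr2, Chil3 and Plac8 were at 98 to 430 CPM in controls and at 100 to 1208 after MCAO. Microglia markers were at 21293 CPM in control brain and at 9262, 1698 and 994 in the brain libraries after MCAO, and were at 1536 and 830 CPM in control and 24 h pia and 921 and 953 in dura. By these markers the control brain cells went against the name macrophage clusters and were unlike those of the other controls. The part of all these markers in the changes of Mmp19, Adam8 and Timp1 was not tested.

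DESeq2 called Mmp19 (2.68, adjusted p = 0.023) and Adam8 (2.79, adjusted p = 0.028). Over the 6 libraries edgeR called Mmp19 (2.38, SE 0.40, adjusted p = 0.038) and Timp1 (3.35, SE 0.45, adjusted p = 0.030), where 1.44% of genes were called, and Adam8 was at 2.54 (SE 0.56, adjusted p = 0.074). Mmp12 was at 1.62 (SE 1.49, adjusted p = 0.92) over 8 libraries. The median over the 9 genes was 1.64 on the log2 scale, beside 0.06 over all genes tested. The 9 genes were chosen with earlier results of these data known, so this median is a description only. The stroke effect was not shown to differ between tissues for any of the 9 genes, with 0 of 10887 genes (0%) called by the interaction test in edgeR, 25 at an unadjusted p under 0.05 and 0 called by DESeq2.

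In Granulo_1 the same 3 genes, of 7 tested, had each of the 5 MCAO libraries above both controls, beside 10.4% of all genes. For Timp1 the depth cannot show this, since the limits of 3 counts in control pia (33.2 CPM) and control dura (19.8 CPM) were above the value of 24 h dura. Control brain had 5 cells of this cluster and was in none of the fits. With tissue as a term, their stroke values therefore rest on pia and dura and include no change in brain. Mmp19 was at 3.76 on the log2 scale (SE 1.16), Adam8 at 2.39 (SE 0.85), Mmp8 at 2.44 (SE 1.05) and Timp2 at -2.08 (SE 1.27), each at an adjusted p of 1 over 7 libraries. There edgeR called 0 of 4926 genes (0%), 173 had an unadjusted p under 0.05, and DESeq2 called 5. Over the longer-list libraries, where 2.73% of genes were called, 5 of the 7 were called. Mmp19 (3.68, SE 0.70, adjusted p = 4.3e-05), Adam8 (2.33, SE 0.61, adjusted p = 0.0074), Mmp8 (2.23, SE 0.55, adjusted p = 0.0049) and Timp1 (adjusted p = 0.0026) were higher after MCAO. Timp2 was lower by this fit (-2.13, SE 0.53, adjusted p = 0.0052). It was at 409.6 CPM in control pia and 15.9 to 108 in the other 6 libraries, and over all libraries the value was 0.16 without control pia and 0.12 without pia at 24 h, so its direction rested on either of these libraries. The longer-list fit has 1 residual degree of freedom. The summed SAMC markers were at 55.4 and 98.8 CPM in control Granulo_1 and at 372 to 7528 after MCAO. Control pia held 1827 CPM of border macrophage and 731 of monocyte markers, where the other 6 libraries held 0 to 575 and 5462 to 8538. Their part was not tested.

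Among microglia clusters, 6 of the 9 genes could be tested and none was called over 8 libraries (0 of 9273 genes, 0%, by edgeR, with 327 at an unadjusted p under 0.05 and 11 called by DESeq2). Adam8 was at 3.46 on the log2 scale (SE 1.10, adjusted p = 0.91), and at 3.89 (SE 0.58, adjusted p = 0.00059) over the longer-list libraries, where 2.23% of genes were called. In Micro_3 Adam8 was at 0 in control brain, 69.7 (69 UMIs) and 81.1 (40 UMIs) in the 24 h replicates and 7.33 (4 UMIs) at 72 h. In lymphoid clusters 2 of the 9 genes passed the filter on low counts and neither was called (0 of 8073 genes, 0%, by edgeR, 187 at an unadjusted p under 0.05, 3 called by DESeq2).

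Over all annotated cells summed, where more cells of a type and more RNA per cell cannot be told apart, Mmp19, Adam8 and Timp1 again had every MCAO library above every control, beside 2.84% of all genes. Mmp19 was at 3.25 (SE 0.61), Adam8 at 2.93 (SE 1.15), Timp1 at 3.84 (SE 1.15) and Mmp8 at 4.39 (SE 1.82) on the log2 scale, and none was called by edgeR (0 of 12380 genes, 0%, 514 at an unadjusted p under 0.05). DESeq2 called these 4 genes, with adjusted p of 2.2e-05, 0.049, 0.0021 and 0.0043, where it called 0.574% of all genes. Over the 6 libraries edgeR called 0.442% of genes and 0 of the 9 members. Control brain held 0 Timp1 UMIs and 2 Mmp8 UMIs in these cells, so the fitted folds of both genes are no bounds.

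The other genes of these families were taken from a list of 53, of which 52 are in the files and 20 reached a mean of at least 20 CPM in some cluster. Of the other metalloproteinases 2 of 17 did so. These were Mmp25, a membrane-anchored leukocyte enzyme, at 73.6 ± 57.6 CPM in gdTc, and Mmp13, a collagenase, at 20.4 ± 22.7 in Macro_2. Of the other inhibitors 0 of 4 did, with the highest mean 18.8 CPM for Timp3. Lcn2, whose protein binds Mmp9, was at 6779 ± 5341 CPM in Granulo_2. The urokinase receptor Plaur was at 1270 ± 919 CPM in Granulo_2, and Adamts1 was at 1231 ± 386 in stress_Micro.

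Of this list, 2 genes were called in a comparison over 8 libraries, both lower in brain than in dura macrophage clusters, as Mmp9 was. Many listed genes could not be tested there, with 1 of the 18 other metalloproteinases and 5 of the 11 other Adam genes tested. In that comparison 1.42% of all 10122 genes were called, 15 higher and 129 lower in brain. Mmp13 was at 0 to 1.11 CPM in the 4 brain libraries (4 UMIs in all), 53.2 (116 UMIs) in control dura and 25.0 (68 UMIs) in 24 h dura, with a log2 fold change of -6.33 (SE 0.66, adjusted p = 0.010, edgeR). It was at 31.4 in both pia libraries, and without control dura or dura 24 h its adjusted p was 0.069 and 0.34. Adam33 was at 1.84 to 3.34 CPM in brain and 12.5 to 13.8 in dura, and highest in pia at 37.0 and 35.9 CPM. Brain against dura gave -2.83 (SE 0.41, adjusted p = 0.020, edgeR). Its adjusted p was 0.082 without control brain, 0.088 without control pia, 0.086 without pia 24 h, 0.15 without control dura and 0.53 without dura 24 h, so this call rested on each of these libraries.

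Genes with the most similar pattern over the 21 clusters were taken by the Pearson correlation of log2(mean CPM + 10) among 9747 genes, as a description in which the same libraries underlie all points. Those most like Mmp8 were Sgms2 (0.97), Tnfaip6 (0.96) and Trem3 (0.96), and those most like Mmp9 were Fpr1, a receptor for bacterial peptides (0.93), Ica1 (0.92) and Mirt2 (0.92). Mmp12 was most like Lpl, the lipoprotein lipase (0.82), Rhoc (0.79) and Fam219a (0.78). Mmp14 was most like Sdc3, Phf11d and Ifi204 (each 0.94), and Mmp19 like Tgm2 (0.87), Pdpn (0.86) and Nxpe5 (0.86). Adam8 was most like the lipid droplet gene Plin2 (0.87), the ferritin gene Fth1 (0.85) and the interleukin-1 antagonist gene Il1rn (0.84). Adam17 was most like Rrbp1, Lrp1 and Plxnb2 (each 0.97). Timp1 was most like Adora2b (0.87), Atox1 (0.85) and Rnh1 (0.85), and Timp2 like Hebp1 (0.93), Tmem104 (0.93) and Rin2 (0.92).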

How the data were processed

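The study sorted CD45iv-CD45+ leukocytes and made droplet libraries with 10x Chromium 3′ kits. Per the submitters' processing notes, the authors obtained UMI counts per gene and barcode with Cell Ranger 6.0; these deposited counts were not normalized, and cells were not filtered by quality. Cluster names are the authors' deposited annotation, made after their removal of low-quality cells and doublets, and their UMAP coordinates were not used.

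Genes were matched by identifier over both gene lists. UMIs were summed per library and cluster, scaled to CPM, and averaged over libraries with at least 30 cells. Intervals (95%, exact Poisson) and the floor of 3 counts cover counting error only. Cells were thinned to 500 UMIs for shares. Sums were compared in R 4.3.3 with edgeR 4.0.16 (filterByExpr, TMM, robust quasi-likelihood test, two-sided, tissue and stroke as terms, or time alone for SAMC), adjusted by Benjamini-Hochberg over all genes tested; SE values were derived from the F statistic. Called genes differed at least 2-fold with an adjusted p under 0.05. Alternatives were DESeq2 1.42.0, library size scaling, no filter on low counts, kit version as a covariate, a minimum of 10 cells and each library left out; the gene list as a covariate, the 6 longer-list libraries alone, cluster means over shared libraries and the Timp1 bound without each MCAO library were added after seeing the data. Scripts were tested on simulated data.

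The members and lists were chosen with earlier results of these data known. The genes named are the 9 members, for each the 3 most similar genes, and, of the family list, those called and the 3 highest; Mmp25 and Timp3 were named after their values were seen. Kit versions are those of the study's supplement. The study's other experiments were not analysed here.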

Additional observations from a re-analysis of the deposited data

Results flagged for a closer look

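Barcodes with no cluster name, which no comparison used, also held these transcripts. For all members but Timp2, the highest of the 5 MCAO libraries was above the highest of the 3 control libraries, whatever their tissue. Having more MCAO than control libraries favours this order even without an effect, and its share over all genes was not computed. For Mmp9 (32.1 CPM in brain at 72 h, highest control 31.2) the gap lay within the counting interval, and for the other 7 genes it did not. Mmp8 was at 54.3 CPM in dura at 24 h (highest control 26.8), Mmp14 at 85.4 CPM in brain at 72 h (26.2) and Adam17 at 91.8 CPM in brain at 72 h (57.4). Mmp12 and Adam8 were at 121 and 119 CPM in brain 24 h replicate 1 (20.99 and 15.7). Mmp19 was at 23.1 CPM in pia at 24 h (6.56) and Timp1 at 65.4 CPM in dura at 24 h (27.7). Cluster names were given after the study had removed low-quality cells and doublets, so such barcodes are to be expected here. Their median depth was 2683 to 3110 UMIs by library, against 1083 to 2505 for annotated cells. Which of them are doublets or low-quality cells was not tested.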

How the results depend on the processing

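Of 361 values of the named genes under alternatives (26 results), 317 kept their direction and side of the threshold, 21 passed it that had not, 18 lost it and 5 reversed. Reversed were Timp2 in Granulo_1, at 0.16 without control pia and 0.12 without pia 24 h (range over left-out libraries -3.98 to 0.16), and Adam17 in macrophage clusters after MCAO, at -0.061 without control brain (range -0.061 to 0.26), -0.0089 with the gene list as a covariate and -0.017 in the longer-list libraries. The losses were of Mmp9, Mmp13 and Adam33 in brain against dura. The causes were not tested. No paired analysis was made, because the groups compared share fewer than 2 replicate numbers and these numbers do not identify animals. The study describes dissecting brain, pia and dura from mice, so libraries of different tissues may share animals. The fits treat all libraries as independent.

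Counts of genes called over all annotated cells, microglia, macrophage, Granulo_1, lymphoid, pia against dura, brain against dura and SAMC were 71, 11, 13, 5, 3, 8, 630 and 30 with DESeq2, and 9, 22, 7, 11, 12, 18, 469 and 41 with no filter. With the gene list as a covariate they were 3 (all annotated cells), 38 (microglia), 8 (macrophage), 41 (lymphoid), 25 (pia against dura), 1966 (brain against dura) and 4 (stroke effect by tissue). In the longer-list libraries they were 52, 141, 136, 123, 44, 79 and 2352, in the order above without SAMC. Brain against dura had 70 with library size scaling and 6 with the kit covariate. With 1 library left out, counts were 0 to 46 in microglia, 0 to 1 in macrophage clusters, 0 to 2 in lymphoid clusters, 0 to 1 for pia against dura, 0 to 305 for brain against dura, 0 to 1045 for SAMC and 0 to 252 for the effect by tissue. The highest microglia, brain-dura and by-tissue counts came without brain 24 h replicate 1. The highest SAMC count came without brain 24 h replicate 2, where brain 72 h was the only library with the shorter gene list. The fits have 1 to 4 residual degrees of freedom, so a count of 0 does not show that genes did not differ.

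Shares of cells with a UMI depended on depth: not thinned they were 50.5% for Mmp9 in Granulo_2, 19.7% for Mmp14 and 48.0% for Adam8 in SAMC, 19.4% for Mmp19 and 8.94% for Timp1 in Granulo_1, and 44.5% for Timp2 in CAM_2. At 1000 UMIs, among cells that reached this depth, they were 45.3% for Mmp9, 6.82% for Mmp14, 31.7% for Adam8 and 33.9% for Timp2. With a pseudocount of 1 CPM, 13 of the 27 most similar genes were shared.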
